A study of Homo sapiens with 16 samples.

Results

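Homologous recombination and Fanconi repair genes were described here as a group of 35 listed genes for break sensing, checkpoint signalling, strand exchange and cross-link repair. All 35 were found by name among the 34691 gene names of the deposited signal table, 34 under a current symbol and 1, MRE11A, under an older one (now MRE11). Of the 35, 28 passed a filter on the deposited detection p-value and entered the test with 17126 genes in all. The other 7 (RAD50, ATR, CHEK2, BRCA2, RAD54B, FANCF and FANCM) were detected on fewer than 2 arrays and are described from their signals.

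The samples were cultures of MDA-MB-231, a widely used human breast cancer cell line with mesenchymal traits, and each array gave 1 Illumina BeadChip signal for each name. Of the 8 groups, 7 received drugs for 48 h and the eighth received the vehicle DMSO, with 2 arrays in each. The drugs were entinostat at 2.5 µM, an inhibitor of class I histone deacetylases, all-trans retinoic acid (ATRA) at 1 µM, a ligand of retinoic acid receptors, and doxorubicin at 0.2 µM, an anthracycline that poisons topoisomerase II and leaves DNA breaks. The treated groups were the 3 drugs together, entinostat with doxorubicin, ATRA with doxorubicin, entinostat with ATRA, and doxorubicin, entinostat and ATRA each alone. All groups shared the same line and medium, and no genetic change was made in any of them. Replicates carry numbers, but nothing in the labels ties them to separate cultures, and the spread on which each p-value rests may be technical.

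In homologous recombination, a broken DNA end is trimmed to a single strand, made ready for pairing with the help of the BRCA proteins, and copied from the intact sister chromatid. The Fanconi pathway unhooks cross-links between strands and passes the resulting breaks to the same machinery. Both act mostly in S and G2 phase, when a sister chromatid is at hand, and the kinases ATM, ATR, CHEK1 and CHEK2 hold the cell cycle while repair proceeds.

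Promoters are given for 4 genes described below whose promoters hold sequence matches. FANCD2 and TOPBP1 hold a match to an E2F site, and RAD51AP1 and BLM hold matches to the CCAAT box. They do not stand for all genes that changed. BARD1 and RBBP8, which also fell with entinostat and doxorubicin, held no match to any element searched. E2F factors drive genes of S phase, and the CCAAT box is bound by NF-Y. Sequences are from RefSeq on build GRCh38.p14, from 250 bases before to 50 bases after the start of the gene, on the strand of the gene, with the matches in capitals.
FANCD2 (chr3:10026187-10026486, plus strand): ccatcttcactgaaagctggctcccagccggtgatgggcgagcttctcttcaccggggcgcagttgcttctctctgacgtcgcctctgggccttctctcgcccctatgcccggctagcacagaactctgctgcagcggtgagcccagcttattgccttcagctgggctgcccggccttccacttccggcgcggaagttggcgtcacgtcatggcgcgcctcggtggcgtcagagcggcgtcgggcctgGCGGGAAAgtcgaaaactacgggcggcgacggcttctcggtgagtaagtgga
TOPBP1 (chr3:133661892-133662191, minus strand): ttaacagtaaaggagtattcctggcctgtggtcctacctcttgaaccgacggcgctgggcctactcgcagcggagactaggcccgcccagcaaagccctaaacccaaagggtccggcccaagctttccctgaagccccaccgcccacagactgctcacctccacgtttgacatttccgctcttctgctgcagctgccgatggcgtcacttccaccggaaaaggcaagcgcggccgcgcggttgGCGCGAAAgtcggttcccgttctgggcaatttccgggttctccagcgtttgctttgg
RAD51AP1 (chr12:4538640-4538939, plus strand): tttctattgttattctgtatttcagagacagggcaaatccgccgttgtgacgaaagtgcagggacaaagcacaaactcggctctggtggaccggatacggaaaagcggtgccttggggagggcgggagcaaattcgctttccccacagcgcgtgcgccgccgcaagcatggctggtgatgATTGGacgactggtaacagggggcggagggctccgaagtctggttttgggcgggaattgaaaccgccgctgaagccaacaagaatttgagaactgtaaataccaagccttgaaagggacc
BLM (chr15:90717096-90717395, plus strand): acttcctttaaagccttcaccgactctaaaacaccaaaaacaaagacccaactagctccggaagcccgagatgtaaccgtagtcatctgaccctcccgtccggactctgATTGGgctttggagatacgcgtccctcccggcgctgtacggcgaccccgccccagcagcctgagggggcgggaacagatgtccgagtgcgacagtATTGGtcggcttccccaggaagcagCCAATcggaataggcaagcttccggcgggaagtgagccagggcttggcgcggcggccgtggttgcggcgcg

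The search covered both strands, and position -1 is the base just before the start site. The first bases of the E2F matches lay at -2 in FANCD2 and -7 in TOPBP1, and those of the CCAAT matches at -70 in RAD51AP1 and at -141, -46 and -21 in BLM. Of the 35 genes, 32 had a promoter in the table, with 42 promoters between them. An E2F match (TTTCCCGC, TTTCGCGC, TTTGCCGC or TTTGGCGC) was found in 6 of the 42 (14.3%), of EXO1, TOPBP1, XRCC2, FANCA, FANCC and FANCD2, and in 3.31% of all 35116 promoters of that length. A CCAAT match was found in 45.2% of the 42 and in 34.6% of all. The cell cycle homology region (TTTGAA or TTCGAA), another element of cell cycle promoters, was matched in 7.14% of the 42 and in 16.4% of all. These are letter matches and not measured binding sites.

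Between 11402 and 12748 genes were detected per array (36.4% to 40.7% of 31329 names, controls and unnamed clusters left out). The correlation between replicates was 0.9807 to 0.9909, taken over genes that are not independent. The arrays of doxorubicin alone stood apart from each other, at 4.24 and 21.2 on a first principal component that held 52.8% of the variance, and the median gap between them over the 28 tested repair genes was 0.26 on the log2 scale, against 0.096 to 0.174 in the other groups. Vimentin (11816.6 to 18801.8), CD44 and CAV1 were detected on all 16 arrays, but the mesenchymal marker SPARC was detected on only 3 (-11.3 to 29.7). ESR1 and PGR, the oestrogen and progesterone receptors, were detected on 0 arrays, and CDH1 and ERBB2 on 1 each. EPCAM, an epithelial marker taken as low in this line, was detected on all 16 arrays (131 to 269.7). Of 5 markers of blood, endothelium and fibroblasts, PTPRC and CD3E were detected on 0 arrays, HBB on 2, COL1A1 on 6 and PECAM1 on 13, and their summed signal was 4.8 to 114.3 per array.

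With entinostat and doxorubicin together, 13 of the 28 tested genes fell against DMSO and 0 rose (46.4%), where 14.8% of all tested genes fell and 13.2% rose (limma, Benjamini-Hochberg adjusted p below 0.05, here termed called). The 13 were NBN, CHEK1, BLM, BARD1, EME1, TOPBP1, FANCG, RAD51AP1, PALB2, FANCD2, MRE11A, ATM and RBBP8. The median log2 change was -0.44 over the 28 genes and -0.013 over all tested genes. Without DMSO replicate 2 the count of 13 dropped to 7.

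Doxorubicin alone and entinostat alone each lowered 1 tested repair gene, though both counts moved with the processing. That gene was NBN with doxorubicin, where 7.12% of all tested genes fell and 6.48% rose, and RAD51AP1 with entinostat, where 0.257% fell and 1.32% rose. The median log2 change over the 28 genes was -0.13 with either drug. With ATRA alone, limma called 0 of the 28 genes and 0 had an unadjusted p below 0.05, while 0% of all tested genes fell and 0.0234% rose. NBN was also the single gene lowered by entinostat with ATRA (background 0.677% lower and 1.78% higher) and by ATRA with doxorubicin (7.57% lower and 7.4% higher). In these single-call comparisons 0 repair genes rose. The doxorubicin count was 4 when normexp used the detection p-values, 4 with a filter on mean signal, 3 with no detection filter (of 35 genes, where 3.71% of all names fell), 3 with a replicate block and 2 with the authors' log2 table. Without doxorubicin replicate 1 it was 2, and without replicate 2 it was 1. The count for ATRA with doxorubicin was 2 to 4 under the other settings that moved it. Entinostat with ATRA gave 0 with offset 16 or with only the 4 arrays compared. The count for entinostat alone ran from 0 to 2 as single arrays were left out, and was 0 with offset 16, 2 with the authors' table and 3 with a replicate block. All of these comparisons share the 2 DMSO arrays. Leaving out an array that both sides of the comparison lack can also change a call here, because the spread and the adjustment are shared across the fit.

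The 3 drugs together lowered 11 of the 28 repair genes and raised 0 (39.3%), with a median log2 change of -0.31, where 14.8% of all tested genes fell and 13% rose. The 11 were NBN, BLM, CHEK1, BARD1, EME1, RBBP8, ATM, TOPBP1, FANCD2, RAD51AP1 and PALB2. This count depended on single arrays. It was 2, NBN and RBBP8, without the first 3-drug array, 4 without DMSO replicate 2 and 5 without the second 3-drug array. It was also 5 when normexp used the detection p-values. The 3 drugs set directly against entinostat with doxorubicin gave 0 called repair genes in limma, with 0 at an unadjusted p below 0.05, and 0% of all tested genes in either direction.

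**Figure D1:**
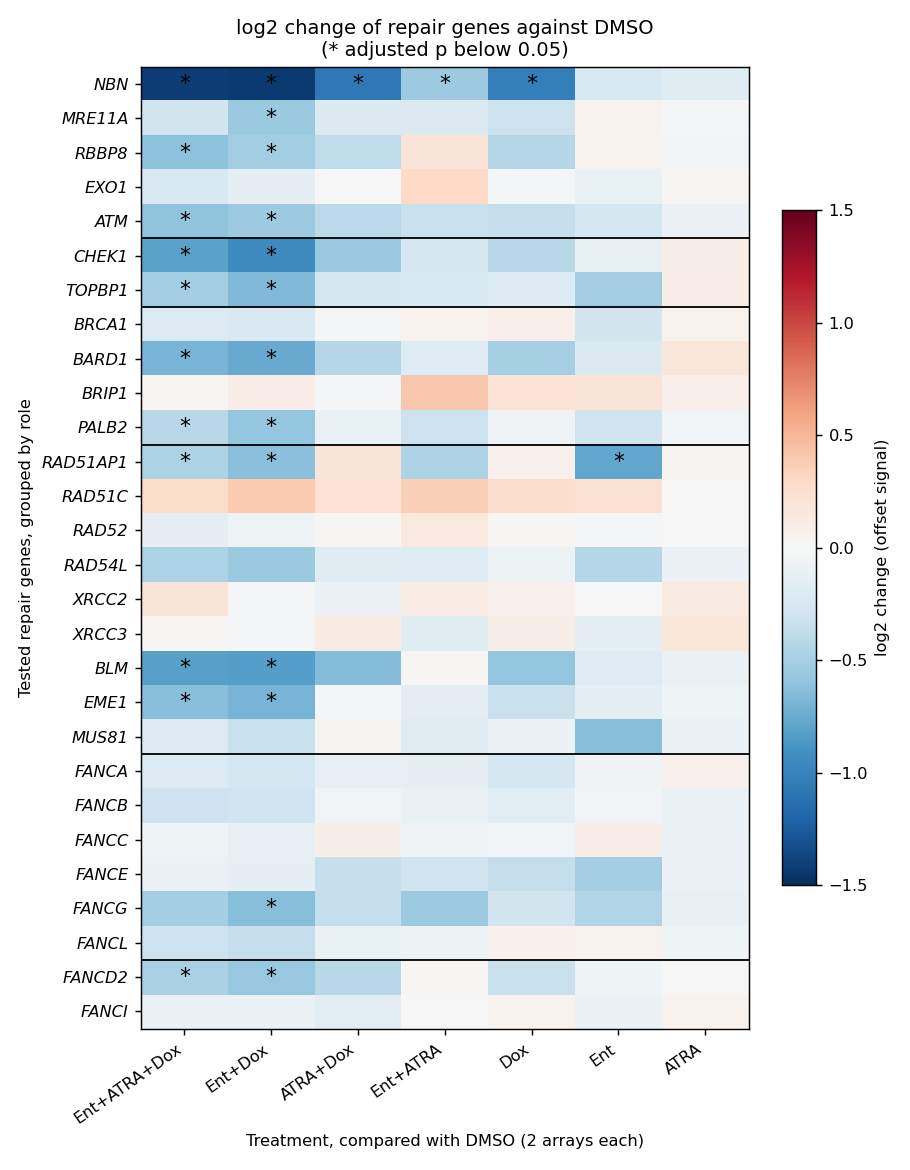
Fitted log2 change of the 28 tested repair genes (rows, grouped by role) in 7 treatments against DMSO (columns, 2 arrays each), with an asterisk where the limma adjusted p was below 0.05. The columns of entinostat with doxorubicin and of the 3 drugs hold 13 and 11 asterisks, the other columns at most 1, and RAD51C is the row with positive values in every treatment with entinostat or doxorubicin.

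**Figure D2:**
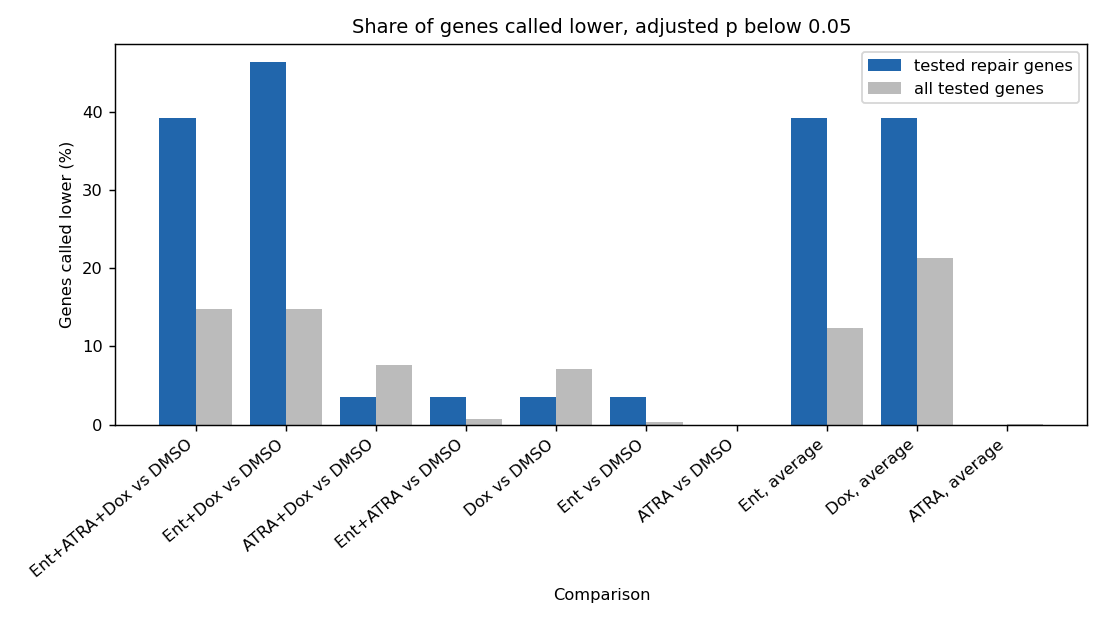
Percent of the 28 tested repair genes (blue) and of all 17126 tested genes (grey) that were called lower in each comparison, with bars from 0. The repair genes stand at 46.4% against 14.8% for entinostat with doxorubicin, and at 3.57% (1 gene, a count that was 1 to 4 over the settings tried) against 7.12% for doxorubicin alone.

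Each drug was also averaged over the 8 arrays that held it, set against the 8 that did not. Doxorubicin lowered 11 of the 28 repair genes on average and raised 0 (39.3%), beside 21.3% of all tested genes lower and 19.8% higher. These 11 were NBN, BLM, CHEK1, RBBP8, BARD1, FANCD2, EME1, ATM, MRE11A, TOPBP1 and FANCA, and the count was 12 without doxorubicin replicate 1 and 9 without replicate 2. Of these, ATM and FANCD2 passed the detection filter only through arrays without doxorubicin. Entinostat also lowered 11 and raised 0, beside 12.3% of all tested genes lower and 11% higher, and its 11 were RAD51AP1, TOPBP1, PALB2, FANCG, NBN, RAD54L, CHEK1, MUS81, EME1, BARD1 and ATM. Without entinostat replicate 1 the entinostat count was 5, without the second array of ATRA with doxorubicin it was 6, and without the first 3-drug array it was 7. It was 6 when normexp used the detection p-values. ATRA on average gave 0 called repair genes in limma and 0 at an unadjusted p below 0.05, beside 0.00584% of all tested genes lower and 0.105% higher.

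**Figure D3:**
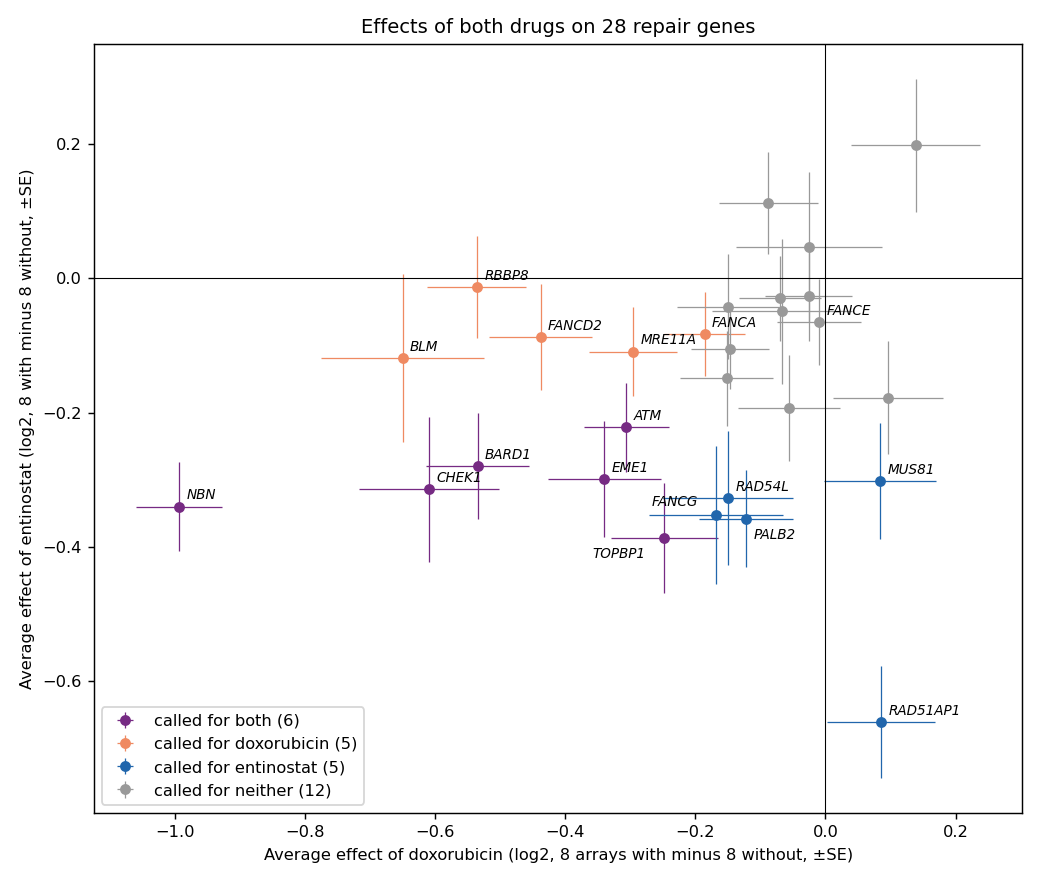
Average effect of doxorubicin (horizontal) and of entinostat (vertical) on each of the 28 tested repair genes, as log2 differences between 8 arrays with the drug and 8 without, with bars of 1 SE. RAD51AP1 lies low at -0.66 for entinostat and near 0 for doxorubicin, RBBP8 and BLM lie at -0.54 and -0.65 for doxorubicin and near 0 for entinostat, and NBN is low on both axes.

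Among the genes that sense breaks and trim their ends, 4 of 5 tested genes were lower with entinostat and doxorubicin than with DMSO. In that comparison 14.8% of all tested genes were lower. NBN encodes nibrin, the subunit of the MRE11-RAD50-NBN complex that brings ATM to a break. Its signal was 14.6 and 6.1 with the 3 drugs, 12.1 and 5.6 with entinostat and doxorubicin, 33.8 and 28 with ATRA and doxorubicin, and 43.3 and 25.1 with doxorubicin alone. It was 75.4 and 73.1 with entinostat and ATRA, 110.1 and 106.7 with entinostat, 123.8 and 105.1 with ATRA, and 157.3 and 122.5 with DMSO. The 8 arrays with doxorubicin (median 19.85) all lay below the 8 without it (median 108.4), and the 4 with entinostat besides were the lowest. Such a complete split by doxorubicin in that direction was found for 6.14% of all tested genes and for 3 of the 28 repair genes, NBN, RBBP8 and FANCD2.

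On the log2 scale NBN fell by 1.44 (SE 0.13, adjusted p = 4.73e-06) with entinostat and doxorubicin, which is at least 2.71-fold lower than DMSO, a bound, because neither treated array was detected or above the noise limit. It fell by 1.41 with the 3 drugs (adjusted p = 6.05e-06), by 1.07 with ATRA and doxorubicin (adjusted p = 0.000207) and by 1.03 with doxorubicin alone (adjusted p = 0.000333). These 4 calls held under every alternative tried and with each array left out. With entinostat and ATRA it fell by 0.55 (adjusted p = 0.0433), a call that was lost when any 1 of 12 arrays was left out (adjusted p 0.0536 to 0.304), and it was at 0.304 without DMSO replicate 1. The average effect was -0.99 for doxorubicin (adjusted p = 5.4e-08) and -0.34 for entinostat (adjusted p = 0.00197). The deposited detection p-value was below 0.05 on only 3 arrays for this gene, although signals reached 157.3.

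RBBP8 encodes CtIP, which starts end resection. Its signals were 226.2 to 315 on the 8 arrays with doxorubicin (median 246.5), against 353.7 to 532.5 on the 8 without (median 399). No array with doxorubicin reached the lowest array without it, whatever the other drugs were. The average effect of doxorubicin was -0.54 (SE 0.08, adjusted p = 4.9e-05), and that of entinostat was -0.01 on the log2 scale. With entinostat and doxorubicin RBBP8 had 257.2 and 238.3, against 413.7 and 359.5 with DMSO, and it fell by 0.53 (adjusted p = 0.0178). This last call was lost without DMSO replicate 1 (adjusted p = 0.126) and without either array of the pair (0.0528 and 0.0872). With the 3 drugs it had 230.1 and 226.2 and fell by 0.62 (adjusted p = 0.0074, but 0.0696 without DMSO replicate 1).

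MRE11A, the nuclease of the same complex, had 24.9 and 22.1 with entinostat and doxorubicin, against 55.7 and 76.8 with DMSO. It fell by 0.56 on the log2 scale (adjusted p = 0.00592, but 0.0698 without DMSO replicate 2) and by 0.30 in the doxorubicin average (adjusted p = 0.00228). ATM, the kinase that nibrin recruits, had 75.3 and 56.4 with the pair, against 140.1 and 108.1 with DMSO. It fell by 0.54 (adjusted p = 0.00645), with adjusted p of 0.0798 without DMSO replicate 1 and 0.065 without the second array of the pair. In the 3-drug group it fell by 0.60 (adjusted p = 0.00333, but 0.0519 without the first 3-drug array). ATM was detected on 4 arrays, all without doxorubicin, and so was tested only through groups on the high side of that contrast. Its average effect was -0.31 for doxorubicin (adjusted p = 0.00163, and 0.00138 with no detection filter) and -0.22 for entinostat (adjusted p = 0.025). That entinostat call was lost when any 1 of 4 arrays was left out, at adjusted p of 0.0533 to 0.066.

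EXO1, a nuclease that extends resection, was not called in any comparison. Its signals ran from 272.9 to 459.1 over the 16 arrays, and its log2 difference with entinostat and doxorubicin was -0.15 (adjusted p = 0.544). RAD50, the third member of the complex, was not tested, with signals of 17.6 to 99.7. In a fit with no detection filter its average doxorubicin effect was -0.40 (adjusted p = 0.00285), where 11.9% of all names were lower. It held with each array left out (adjusted p 0.000592 to 0.00928).

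The checkpoint kinases and their activator TOPBP1 gave 2 tested genes, and both fell with entinostat and doxorubicin, beside 14.8% of all tested genes. CHEK1 encodes a checkpoint kinase that delays mitotic entry. Its signal was 344.1 and 376.8 with the 3 drugs, 287.2 and 346.6 with entinostat and doxorubicin, 384.0 and 504.2 with ATRA and doxorubicin, and 496.8 and 484.5 with doxorubicin. It was 450.1 and 679.8 with entinostat and ATRA, 481.1 and 811.5 with entinostat, 708.1 and 749.4 with ATRA, and 620.6 and 755.5 with DMSO. The arrays with both entinostat and doxorubicin were the 4 lowest of the 16, and the arrays with entinostat but no doxorubicin spread most between replicates.

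CHEK1 fell by 0.96 on the log2 scale with entinostat and doxorubicin (SE 0.22, adjusted p = 0.00388), a call that held under every alternative and with each array left out. With the 3 drugs it fell by 0.80 (adjusted p = 0.0127), but the adjusted p was 0.103 without DMSO replicate 2 and 0.078 without the first 3-drug array. On average it fell by 0.61 with doxorubicin (adjusted p = 0.000333). The entinostat average of -0.31 (adjusted p = 0.0491) lay at the threshold and was lost when any 1 of 12 arrays was left out, with an adjusted p of up to 0.124.

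TOPBP1 encodes an activator of ATR. Its signal was 318.3 and 366.0 with the 3 drugs, 295.0 and 308.3 with entinostat and doxorubicin, 335.4 and 347.6 with entinostat alone, and 419.3 and 445.8 with entinostat and ATRA. It was 442.4 and 403.7 with ATRA and doxorubicin, 543.6 and 355.0 with doxorubicin alone, 494.4 and 625.5 with ATRA, and 486.5 and 550.6 with DMSO. The 8 arrays with entinostat were all below both DMSO arrays, while the arrays of doxorubicin alone lay on either side of the lower DMSO array. It fell by 0.66 with the pair (SE 0.17, adjusted p = 0.0077, but 0.064 without DMSO replicate 2). With the 3 drugs it fell by 0.51 (adjusted p = 0.0331), a call lost without either DMSO array (0.0709 and 0.172) or either 3-drug array (0.19 and 0.0541). The entinostat average was -0.39 (adjusted p = 0.00368). The doxorubicin average was -0.25 (adjusted p = 0.0256), lost when any 1 of 7 arrays was left out at adjusted p of 0.0505 to 0.0702. Doxorubicin set against entinostat gave a difference of 0.14 (SE 0.12, adjusted p = 0.443).

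CHEK2, the kinase downstream of ATM, failed the detection filter but split by doxorubicin with no overlap. Its signal was 18.2 and 20.0 with the 3 drugs, 13.1 and 11.2 with entinostat and doxorubicin, 11.7 and 12.6 with ATRA and doxorubicin, and 10.7 and 5.7 with doxorubicin alone. It was 59.8 and 78.9 with entinostat and ATRA, 71.6 and 58.4 with entinostat, 73.5 and 51.5 with ATRA, and 45.9 on both DMSO arrays. The 8 arrays with doxorubicin thus lay at 5.7 to 20, near the background noise limit of 22.4, and the 8 without at 45.9 to 78.9. The 6.14% given above for such splits covers only genes that passed the filter. The share among the other names, which include CHEK2 and RAD54B, was not counted.

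In the fit with no detection filter the average effect of doxorubicin on CHEK2 was -0.67 (SE 0.06, adjusted p = 5.77e-07), and with each array left out the adjusted p stayed at or below 4.29e-06. Doxorubicin alone lowered CHEK2 at least 1.5-fold against DMSO (adjusted p = 0.00523), where 3.71% of all names were lower, and entinostat with doxorubicin lowered it at least 1.43-fold (adjusted p = 0.00451), where 8.1% were lower. In that fit 14 of the 35 listed genes were lower in the doxorubicin average, namely CHEK2, RAD50 and RAD54B besides the 11 already named. The share lower was 11.9% over all names and, in the filtered fit, 21.3% over all tested genes. Most of the 35 passed the filter, so the second share is the closer comparison. ATR, the kinase of stalled forks, was at -3.6 to 9.4 on all 16 arrays, which is within the background noise.

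**Figure D4:**
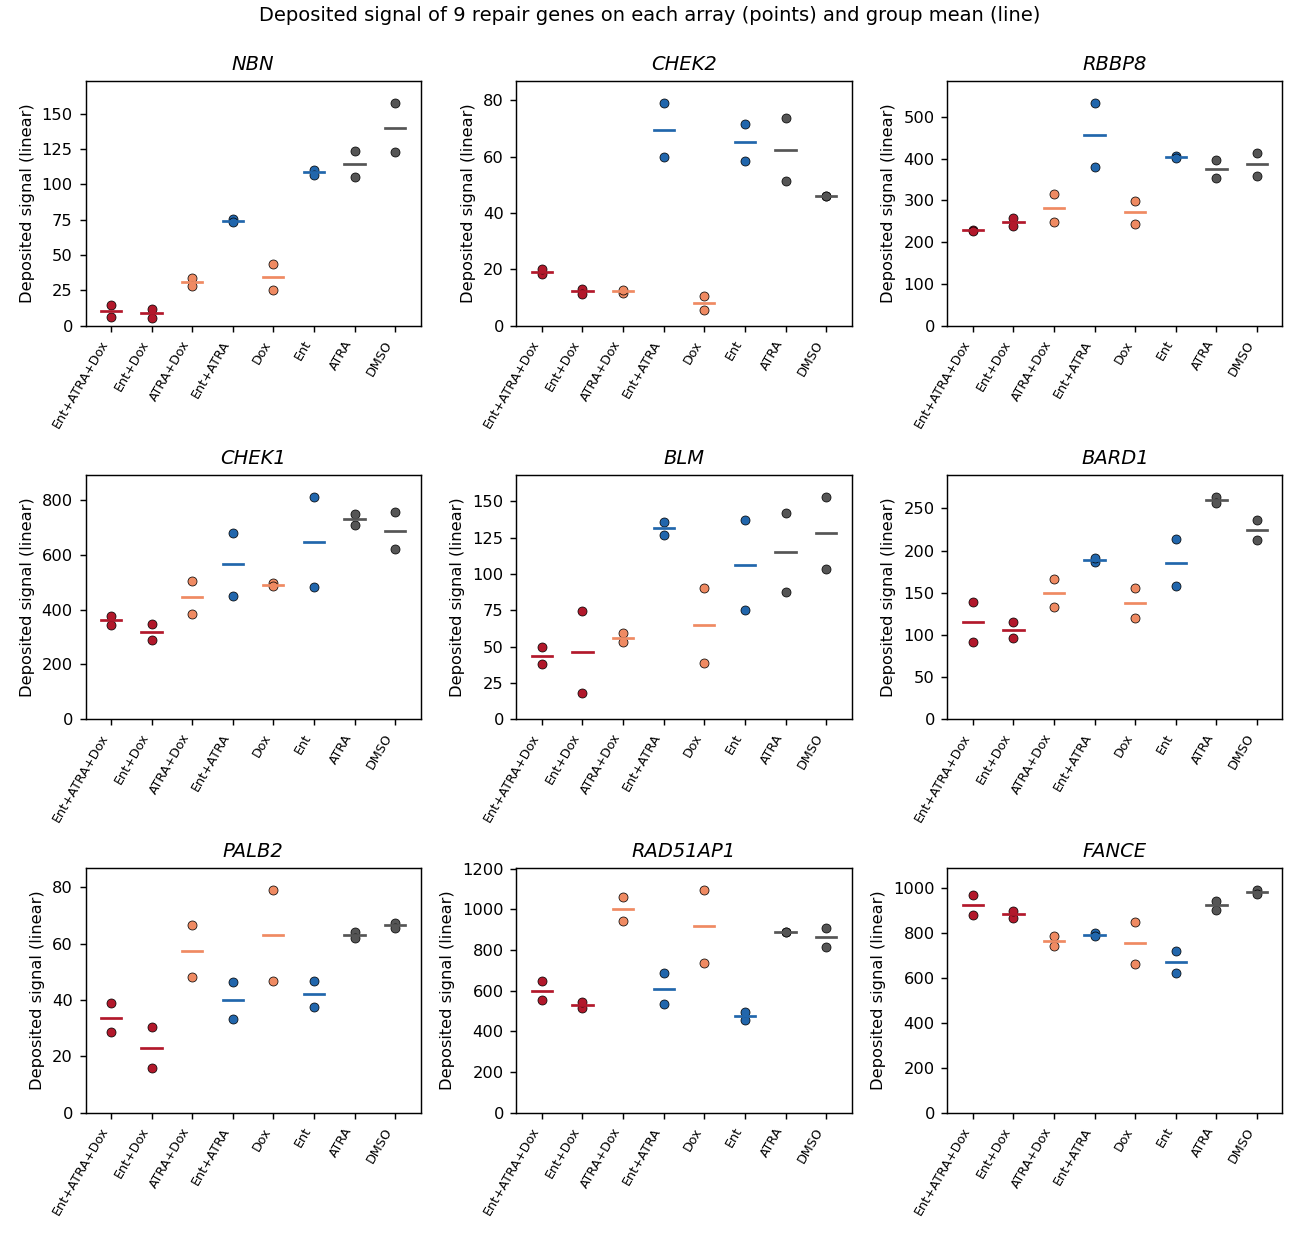
Deposited linear signal of 9 repair genes on each of the 16 arrays (points) with the mean of each group (line), from the 3 drugs at the left to DMSO at the right. NBN, CHEK2 and RBBP8 are low in all 4 groups with doxorubicin, PALB2 and RAD51AP1 in all 4 groups with entinostat, and CHEK1 and BARD1 are lowest where both were given.

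Of the BRCA complexes, 2 of 4 tested genes, BARD1 and PALB2, fell with entinostat and doxorubicin, beside 14.8% of all tested genes. BARD1 is the partner that stabilises BRCA1 and forms a ubiquitin ligase with it. Its signal was 91.9 and 138.6 with the 3 drugs, 96.8 and 114.8 with entinostat and doxorubicin, 132.6 and 165.8 with ATRA and doxorubicin, and 120.5 and 155.8 with doxorubicin. It was 186.6 and 190.8 with entinostat and ATRA, 157.5 and 213.4 with entinostat, 263.9 and 256.6 with ATRA, and 212.8 and 236.0 with DMSO. All 8 doxorubicin arrays were below both DMSO arrays, and 1 of the 4 arrays with entinostat but no doxorubicin reached the DMSO range. BARD1 fell by 0.76 with the pair (SE 0.16, adjusted p = 0.00226), which held under every alternative. It fell by 0.70 with the 3 drugs (adjusted p = 0.00427, but 0.0661 without the first 3-drug array). Its average effect was -0.54 for doxorubicin (adjusted p = 7.1e-05) and -0.28 for entinostat (adjusted p = 0.0193). The entinostat call was lost without entinostat replicate 1 (0.0547), the first 3-drug array (0.0513) or the second array of ATRA with doxorubicin (0.051).

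PALB2 links BRCA1 to BRCA2 at the break. Its signals were 15.7 to 46.6 on the 8 arrays with entinostat (median 35.45), against 46.9 to 79 on the 8 without (median 64.85). The 2 sets of arrays did not overlap, though they nearly touched, and the same was found for 0.905% of all tested genes and for 2 of the 28 repair genes, PALB2 and RAD51AP1. PALB2 fell by 0.36 in the entinostat average (adjusted p = 0.00269). With entinostat and doxorubicin it had 30.5 and 15.7, against 67.4 and 65.6 with DMSO, and fell by 0.58 (adjusted p = 0.00771, but 0.0753 without the second array of the pair). The 3-drug call (-0.42, adjusted p = 0.0436) was lost when any 1 of 8 arrays was left out, with adjusted p of 0.0529 to 0.227.

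BRCA1 itself was not called in any comparison. Its signal was 37.3 and 47.4 with entinostat and doxorubicin, against 48.9 and 72.1 with DMSO, and its log2 difference was -0.23 (adjusted p = 0.329). The average effect was -0.19 for entinostat (adjusted p = 0.1) and -0.06 for doxorubicin (adjusted p = 0.641). BRIP1, a helicase bound to BRCA1, had signals of 1.2 to 34.4 and was not called. BRCA2, which acts at the trimmed end, stayed at -16.4 to 7.4 on all arrays and so gave no measurable level.

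Of the genes that exchange strands and resolve the joined molecules, 3 of 9 tested genes fell with entinostat and doxorubicin. These were BLM, EME1 and RAD51AP1, beside 14.8% of all tested genes. RAD51AP1 encodes a cofactor that stimulates strand pairing. Its signal was 551.4 and 644.9 with the 3 drugs, 516.6 and 542.0 with entinostat and doxorubicin, 684.5 and 534.0 with entinostat and ATRA, and 455.4 and 493.4 with entinostat. It was 1059.9 and 941.9 with ATRA and doxorubicin, 1093.3 and 736.7 with doxorubicin, 887.5 and 889.0 with ATRA, and 907.0 and 815.4 with DMSO. All 8 arrays with entinostat (median 538) were below all 8 without it (median 898), and doxorubicin alone gave both the highest array and the lowest of those without entinostat.

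RAD51AP1 fell by 0.66 in the entinostat average (SE 0.08, adjusted p = 7.08e-05), and by 0.78 with entinostat alone (adjusted p = 0.0322). The call for entinostat alone was lost when any 1 of 6 arrays was left out, at adjusted p of 0.0528 to 0.309, the last without entinostat replicate 1. With entinostat and doxorubicin it fell by 0.63 (adjusted p = 0.0101), with adjusted p of 0.0845 without DMSO replicate 1 and 0.0562 without the first array of the pair. The 3-drug call (-0.47, adjusted p = 0.0452) was lost when any 1 of 12 arrays was left out, with an adjusted p of up to 0.25.

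BLM is the helicase that dissolves joined recombination molecules, and its promoter held the 3 CCAAT matches. Its signal was 49.6 and 37.7 with the 3 drugs, 74.2 and 17.9 with entinostat and doxorubicin, 59.4 and 53.0 with ATRA and doxorubicin, and 90.5 and 38.6 with doxorubicin. It was 135.9 and 127.0 with entinostat and ATRA, 74.8 and 137.2 with entinostat, 87.5 and 142.2 with ATRA, and 103.2 and 153.1 with DMSO. The doxorubicin arrays lay below both DMSO arrays, replicates of the pair and of doxorubicin alone differed widely, and the entinostat arrays without doxorubicin overlapped those of DMSO. BLM fell by 0.65 in the doxorubicin average (SE 0.13, adjusted p = 0.000678). With the pair it fell by 0.83 (SE 0.25, adjusted p = 0.0227). The call was lost without DMSO replicate 2 (log2 change -0.645) and without the second array of the pair (-0.473). Under normexp from the detection p-values BLM changed by only -0.147 (adjusted p = 0.0756), and the call was lost. With the 3 drugs it fell by 0.82 (adjusted p = 0.0249), lost without DMSO replicate 2 (0.179) and without either 3-drug array (0.0684 and 0.116).

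EME1 forms a nuclease with MUS81 that cuts joined molecules. Its signal was 29.8 and 30.2 with the 3 drugs, 29.2 and 23.3 with entinostat and doxorubicin, 83.4 and 79.0 with ATRA and doxorubicin, and 64.4 and 41.1 with doxorubicin. It was 76.1 and 65.5 with entinostat and ATRA, 65.3 and 72.6 with entinostat, 80.6 and 73.9 with ATRA, and 52.3 and 123.1 with DMSO. The 4 arrays with both drugs were the lowest, and the DMSO arrays differed more than any other pair. EME1 fell by 0.70 with entinostat and doxorubicin (adjusted p = 0.00763, but 0.116 without DMSO replicate 2). With the 3 drugs it fell by 0.64 (adjusted p = 0.013), lost without DMSO replicate 2 (0.187) or either 3-drug array (0.0633 and 0.0515). It averaged -0.34 for doxorubicin (adjusted p = 0.00564) and -0.30 for entinostat (adjusted p = 0.023), the second of these lost without entinostat replicate 1 (0.0531) or doxorubicin replicate 1 (0.0518).

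MUS81 was lower in the entinostat average by 0.30 (adjusted p = 0.0199), lost without the first array of entinostat with ATRA (0.0515) or the second of ATRA with doxorubicin (0.0517). RAD54L, a motor protein of strand exchange, was lower by 0.33 (adjusted p = 0.029), a call lost when any 1 of 9 arrays was left out at adjusted p of 0.0503 to 0.0784. RAD51C, which acts in strand exchange, had 740.1 and 530.9 with entinostat and doxorubicin, against 492.6 and 426.4 with DMSO. The treated arrays were above both DMSO arrays, but the log2 difference of 0.40 was not called (adjusted p = 0.162). XRCC2 and XRCC3, with roles in the same step, and RAD52, an annealing protein, were called nowhere, and the RAD52 signal of -2.5 to 16.1 was at background. RAD54B was not tested but had 32 to 46.6 on the 8 doxorubicin arrays, against 47.2 to 89.1 on the 8 others, which nearly touched. Its doxorubicin average without the detection filter was -0.33 (adjusted p = 0.0014).

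The Fanconi core complex, the ubiquitin ligase of the pathway, had 1 of 6 tested genes lower with entinostat and doxorubicin, near the 14.8% of all tested genes. That gene was FANCG, a scaffold of the complex, with 411.3 and 489.7 for the pair, against 612.8 and 900.9 with DMSO. It fell by 0.64 (SE 0.21, adjusted p = 0.0296), but the adjusted p was 0.284 without DMSO replicate 2 and 0.167 without the first array of the pair. Its entinostat average was -0.35 (adjusted p = 0.0224), lost when any 1 of 7 arrays was left out at adjusted p of 0.0501 to 0.0611. FANCA, another core subunit with an E2F match in its promoter, had a doxorubicin average of -0.19 (adjusted p = 0.0277) at signals of only 1.5 to 33. That call was lost when any 1 of 7 arrays was left out, at adjusted p of 0.0513 to 0.0774. FANCB (19.7 to 50), FANCC (14.4 to 40.1) and FANCL, the ligase subunit (107.6 to 200.9), were called in no comparison. FANCF and FANCM stayed below 5 on all 16 arrays and were not tested.

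FANCE, which links the core complex to FANCD2, was the only tested repair gene called for the entinostat by doxorubicin interaction, that is, for a joint change unlike the sum of the separate ones. Its signal was 880.0 and 970.9 with the 3 drugs, 868.0 and 899.9 with entinostat and doxorubicin, 743.0 and 784.5 with ATRA and doxorubicin, and 846.9 and 662.8 with doxorubicin. It was 798.7 and 786.7 with entinostat and ATRA, 623.6 and 720.5 with entinostat, 902.3 and 943.3 with ATRA, and 990.4 and 974.2 with DMSO. The 4 arrays with both drugs were above the 8 arrays with 1 of the pair, and DMSO was the highest. FANCE was picked for its interaction call, so this order of its arrays is no added evidence. Averaged over ATRA, doxorubicin changed FANCE by 0.28 on the log2 scale where entinostat was present and by -0.30 where it was absent. The interaction was 0.59 (SE 0.13, adjusted p = 0.0307), where 0.73% of all tested genes had a lower and 1.13% a higher interaction. The call was lost when any 1 of 12 arrays was left out, with adjusted p of 0.0506 to 0.0865.

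FANCD2 and FANCI form the clamp that the core complex ubiquitinates. FANCD2 signals were 27.7 to 65.7 on the 8 arrays with doxorubicin (median 45.05), against 66.6 to 104.4 on the 8 without (median 85.05), again with no overlap but with less than 1 unit between the nearest arrays. It was detected on only 2 arrays, both of entinostat with ATRA, and so passed the filter only on the high side. It fell by 0.44 in the doxorubicin average (SE 0.08, adjusted p = 0.000402, and 0.000401 with no detection filter). With entinostat and doxorubicin it had 27.7 and 46.6, against 69.2 and 104.4 with DMSO. It fell by 0.57 (adjusted p = 0.0146), but the adjusted p was 0.154 without DMSO replicate 2 and 0.128 without the first array of the pair. In the 3-drug group it fell by 0.49 (adjusted p = 0.0327), and the call was lost without DMSO replicate 2 (0.265) or either 3-drug array (0.109 and 0.113). FANCI, at 230.6 to 430.3, was called in no comparison, and its doxorubicin average was -0.07 (adjusted p = 0.687). Of the 6 genes with an E2F match in the promoter, FANCD2, TOPBP1 and FANCA were called lower in the doxorubicin average. EXO1, XRCC2 and FANCC were not called. In that comparison 39.3% of the 28 repair genes and 21.3% of all tested genes were lower. The TOPBP1 and FANCA calls were lost when single arrays were left out. A link between the match and the change was not tested.

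Doxorubicin and entinostat were also compared directly, without and with ATRA, in a contrast added after the data had been seen. Doxorubicin gave lower levels than entinostat for NBN, BLM, RBBP8 and FANCD2 and higher levels for RAD51AP1 and MUS81 (14.3% lower and 7.14% higher of the 28 genes, where all tested genes gave 14% and 13.6%). FANCD2 passed the detection filter only through the entinostat with ATRA arrays, on the high side of this contrast. With no detection filter its adjusted p was 0.0366, and BLM was not called (0.055). The log2 difference was 0.75 for RAD51AP1 (SE 0.12, adjusted p = 0.000272), -0.65 for NBN (adjusted p = 0.000135) and -0.52 for RBBP8 (adjusted p = 0.00213). These 3 held with each array left out. BLM (adjusted p = 0.0372), FANCD2 (0.0301) and MUS81 (0.0278) were each lost without several arrays, at adjusted p of up to 0.158, and the count of 6 was 3 without entinostat replicate 2 or the second array of ATRA with doxorubicin.

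Adding doxorubicin to entinostat lowered 7 of the 28 genes (NBN, CHEK1, MRE11A, RBBP8, EME1, BARD1 and FANCD2) and raised 0, where 12.3% of all tested genes fell and 10.9% rose. The largest log2 changes were -1.20 for NBN (adjusted p = 3.67e-05) and -0.85 for CHEK1 (adjusted p = 0.011, but 0.156 without entinostat replicate 2). MRE11A fell by 0.61 (adjusted p = 0.00451). NBN and MRE11A held with each array left out, and the count was 2 without entinostat replicate 2 and 4 without the first array of the pair. Adding entinostat to doxorubicin lowered 2 genes, RAD51AP1 and PALB2, where 3.01% of all tested genes fell and 4.67% rose. RAD51AP1 changed by -0.69 (adjusted p = 0.0203) and PALB2 by -0.53 (adjusted p = 0.0405). Neither was called without doxorubicin replicate 1 (0.176 and 0.274) or without either array of the pair (0.108 and 0.0611 for RAD51AP1, 0.0691 and 0.212 for PALB2). The PALB2 call was also lost without either array of DMSO, entinostat or ATRA (0.0506 to 0.0566). The count was 0 when normexp used the detection p-values, 0 with only the 4 arrays compared and 4 with a replicate block, and 5 genes were called without doxorubicin replicate 2.

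Other genes of the pathway were called in both directions, though the count that rose was near the share of all tested genes. Of 32 further genes tested from the same pathways, 9 fell and 4 rose with entinostat and doxorubicin, with a median log2 change of -0.07, beside 14.8% of all tested genes lower and 13.2% higher. BTBD12, the nuclease scaffold now named SLX4, had 63.9 and 35, against 263.4 and 278.2 with DMSO, and fell by 1.54 (adjusted p = 0.000116). MND1, known for meiotic strand exchange, had 168.4 and 147.7, against 548.9 and 513.6 with DMSO, and fell by 1.40 (adjusted p = 4.67e-05). C16ORF75, now named RMI2, a partner of BLM, had 441.5 and 617.2, against 223.1 and 246.4 with DMSO. It rose by 0.96 (adjusted p = 0.00411, but 0.0536 without the second array of the pair). These 3 genes were picked for their large change in this comparison. The lack of overlap between their treated and DMSO arrays is therefore no added evidence.

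Of 13 tested checkpoint partners, 5 fell and 0 rose, with a median of -0.06, against the same 14.8% and 13.2% of all tested genes. TIPIN and TIMELESS, which protect replication forks and help activate CHEK1, fell by 1.5 (adjusted p = 8.16e-05) and 1.04 (adjusted p = 0.00027). TIPIN had 138.6 and 145.1 with the pair, against 523.8 and 526.1 with DMSO, and TIMELESS had 270 and 336.5, against 680.1 and 709. MDC1, the mediator that reads phosphorylated histone at breaks, had 170.6 and 106.7, against 438.5 and 417.9 with DMSO, and fell by 1.28 (adjusted p = 0.00141).

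Proliferation genes moved beside these changes. Of 20 tested, 8 fell and 1 rose with entinostat and doxorubicin, with a median log2 change of -0.39, where 14.8% of all tested genes fell and 13.2% rose. The cyclin gene CCNA2 had 572.3 and 391.2, against 1917.6 and 1597.8 with DMSO, and fell by 1.74 (adjusted p = 4.08e-05). CCNB1 fell by 1.32 (adjusted p = 0.00674, but 0.105 without DMSO replicate 1). E2F2, a factor that activates S phase genes, had 1772.1 and 1828.3, against 340 and 597.5 with DMSO, and rose by 1.84 (adjusted p = 6.04e-05). The summed signal of the 20 genes was 18491.5 and 20071.3 with the 3 drugs, 19783.2 and 18322.6 with entinostat and doxorubicin, 23498.8 and 21405.4 with ATRA and doxorubicin, and 20576 and 22236.1 with entinostat and ATRA. It was 25235.8 and 20575.6 with doxorubicin alone, 18866 and 20761 with entinostat alone, 25111.4 and 25308.4 with ATRA, and 24613 and 24823.3 with DMSO. All 8 arrays with entinostat and both of ATRA with doxorubicin were below the DMSO arrays, and the 2 arrays of doxorubicin alone lay on either side of them. The part of proliferation in the repair gene result was not tested. In bulk RNA, fewer cells that express a gene and less RNA per cell cannot be told apart.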

How the data were processed

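The authors deposited 1 table of linear signal intensities, each paired with a detection p-value by gene name and array, and 1 processed table of log2 values. Per the values, the intensities (-26 to 22098.4) were already background-subtracted, since 27.5% to 28.2% of those on an array were below 0. The submitters' processing notes name limma. The rule that joined probes into genes is not given here.

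From the intensities, normexp (offset 50), quantile normalization and log2 were computed in limma 3.58.1 (R 4.3.3). Spike-in controls (92) and unnamed clusters (3270) were left out, and genes with a detection p-value below 0.05 on at least 2 arrays were tested. A fit of group means over all 16 arrays (lmFit, eBayes, 8 residual degrees of freedom) gave 15 contrasts, with Benjamini-Hochberg adjustment over 17126 genes. Each value named adjusted p is from this limma fit. Folds are on the offset scale, where the offset shrinks changes of dim genes compared with the deposited signals. Changes of dim genes also depend on the background correction. Normexp from the detection p-values put BLM at -0.147 with entinostat and doxorubicin, beside -0.828 here. "At least" folds rest on the correction used here and leave no margin for the SE. "At least" folds apply where no array of the dimmer group was detected and all its signals were below 22.4, or 3 times the noise SD. This limit was set after values were seen. The number of arrays limits the precision. The fit was tested on simulated data.

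The genes and lists were chosen with earlier results of these data known. All 35 genes were accounted for, with values per array for up to 6 called genes with the largest change in each treatment against DMSO and in the interaction. For genes picked this way, the order of their arrays is no added evidence. From each other list up to 3 called genes with the largest change in entinostat with doxorubicin were named, except 1 gene that is not reported here. CHEK2, RAD50 and RAD54B were added after their values were seen. Alternatives were other background corrections, the log2 table, other filters, the compared arrays alone, a replicate block and leaving out each array. Replicate numbers were not used as pairs: same-numbered arrays of different groups deviated together with correlations of 0.0194 to 0.424 (median 0.22) over 28 pairs of groups, with 26 of the 28 above 0.1 where all were required. A shared batch was not tested further, and a replicate block was run as an alternative.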

Additional observations from a re-analysis of the deposited data

Results flagged for a closer look

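FANCE was the gene whose drug effects differed between backgrounds by a direct test. The effect of doxorubicin was 0.28 on the log2 scale where entinostat was present and -0.30 where it was absent, and the interaction was 0.586 (limma, adjusted p = 0.0307). Leaving out any of 12 of the 16 arrays put the adjusted p at 0.0506 to 0.0865, and normexp with offset 16 put it at 0.0961.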

How the results depend on the processing

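Counts of called repair genes against DMSO were small and moved with the processing for single drugs. Normexp from the detection p-values (offset 16) gave 4 for doxorubicin, 3 for ATRA with doxorubicin, 5 for the 3 drugs, 6 for the entinostat average, 0 for entinostat with doxorubicin against doxorubicin and 3 for doxorubicin against entinostat. Under it the calls of RBBP8, BLM and FANCG for entinostat with doxorubicin were lost (adjusted p 0.0629, 0.0756 and 0.0746). The UNG and CCNB1 calls for the pair were lost too (0.0527 and 0.0561). With the 3 drugs those of CHEK1, TOPBP1, PALB2, RAD51AP1, BLM, EME1 and FANCD2 were lost (0.0519 to 0.0748). There PALB2, EME1 and FANCD2 changed by -0.058, -0.103 and -0.079, beside -0.42, -0.644 and -0.488 in the main fit. Normexp with offset 16 gave 0 for entinostat, for entinostat with ATRA and for the interaction. The authors' log2 table gave 2 for entinostat, 2 for doxorubicin and 2 for ATRA with doxorubicin. With no detection filter there were 3 for doxorubicin and 2 for ATRA with doxorubicin, and with a filter on mean signal, chosen after seeing the data, 4 and 3. Fitting only the 4 arrays compared gave 3 for ATRA with doxorubicin, 0 for entinostat with ATRA and 0 for entinostat with doxorubicin against doxorubicin. The replicate block, on numbers that may not pair the arrays, gave 3 for entinostat, 3 for doxorubicin, 4 for ATRA with doxorubicin and 4 for entinostat with doxorubicin against doxorubicin. Entinostat with doxorubicin against DMSO gave 10 to 16 under these settings, beside 13. With each array left out in turn, counts ran from 7 to 14 for entinostat with doxorubicin, 2 to 11 for the 3 drugs, 9 to 12 for the doxorubicin average, 5 to 11 for the entinostat average, 2 to 9 for doxorubicin added to entinostat, 0 to 5 for entinostat added to doxorubicin and 3 to 7 for doxorubicin against entinostat. They ran from 1 to 2 for doxorubicin and for ATRA with doxorubicin, 0 to 2 for entinostat, 0 to 1 for entinostat with ATRA and for the interaction, and stayed at 0 for ATRA, its average and ATRA added to the pair. Over all tested genes, entinostat called 129 under the detection-p correction and 546 with the replicate block, beside 270. Likewise entinostat with ATRA called 274 and 800, beside 421, entinostat added to doxorubicin 852 and 2005 (133 with 4 arrays), beside 1315, and the ATRA average 2 and 32, beside 19. ATRA called 0 to 10, beside 4, doxorubicin 1030 with 4 arrays, beside 2329, and the interaction 684 with the block, beside 318. Of 1949 recomputed values of single genes, 1706 kept direction and call, 243 lost the call and 0 reversed. Many of these values could not reverse. The log2 change is the same under another filter, the replicate block or only the 4 arrays compared. It is also the same when an array outside the comparison is left out. The tally is therefore no measure of how stable the directions are. The causes of the moved counts and lost calls were not tested. Signals near the noise limit, as for BRIP1 and RAD52, limit which changes could be detected.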

Other observations

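Genes of other DNA repair routes were tested beside the recombination genes, in entinostat with doxorubicin against DMSO, where 14.8% of all tested genes fell and 13.2% rose. In base excision repair 4 of 12 tested genes fell and 0 rose, with a median log2 change of -0.32. PARP2, which senses single-strand breaks, had 72.5 and 49.2, against 347 and 308.6 with DMSO, and fell by 1.63 (limma, adjusted p = 1.1e-05). UNG, which removes uracil, fell by 0.99 (adjusted p = 0.0174, but 0.151 without DMSO replicate 2 and 0.169 without the first array of the pair). NTHL1, a glycosylase for oxidised bases, fell by 0.65 (adjusted p = 0.0117, but 0.0667 without DMSO replicate 1 and 0.0772 without the first array of the pair).

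In nucleotide excision repair 4 of 11 tested genes fell and 2, DDB2 and XPC, rose, the second count near the share of all tested genes. RAD23B, a partner of XPC, had 30.7 and 32.1, against 253.3 and 202.5 with DMSO, and fell by 1.57 (adjusted p = 1.97e-06). GTF2H1, a subunit of TFIIH, fell by 0.75 (adjusted p = 0.000998). DDB2, which finds ultraviolet damage, rose by 0.67 (adjusted p = 0.00784) and XPC by 0.58 (adjusted p = 0.00316).

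In non-homologous end joining 2 of 9 tested genes fell and 0 rose, beside 14.8% and 13.2% of all tested genes. XRCC5, which encodes the Ku80 end-binding subunit, had 272.5 and 408.9, against 710.7 and 724.4 with DMSO, and fell by 0.96 (adjusted p = 0.0029). POLM, a gap-filling polymerase, was at least 1.45-fold lower (adjusted p = 0.00685, but 0.104 without DMSO replicate 2 and 0.0727 without the second array of the pair). In mismatch repair 1 of 7 fell, near the share of all tested genes. This was PMS1, which fell by 0.45 (adjusted p = 0.0171, but 0.116 without DMSO replicate 2 and 0.161 without the second array of the pair).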
